A study of Homo sapiens with 2 samples.

Results

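The genes described here encode the subunits of the proteasome, its activators and a few assembly chaperones that share the naming. They were chosen by name, as the genes of the PSMA, PSMB, PSMC, PSMD and PSME series without PSMD14, a rule that uses no measured value. The array's annotation gave 36 such genes with 68 probe sets of their own, out of 19775 genes and 41091 single-gene probe sets in all. Another 5 probe sets were annotated to a subunit together with a different gene and were not used. PSMA6, PSMB11, PSMC5, PSMD7, PSMD13 and PSME2, which had no probe set to themselves, are not analysed here. By the main probe set of each gene, expression of the 35 genes that could be measured was close to equal in GAS2DN and Venus cells. The ratio of GAS2DN to Venus signals lay between 0.611 and 1.26, so that none went over 2-fold in either direction. Dimmer probe sets of PSMD11 and PSMB1 went further, to 0.452 and 2.38, and the lowest main value, that of PSMA7, was not seen in its brighter probe set.

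MEG-01 is a human megakaryoblastic cell line from chronic myeloid leukemia (CML). The cells had been transduced with a lentivirus, either the control vector (Venus) or one that expresses GAS2DN, a truncated and dominant negative form of growth arrest specific 2 (GAS2). Expression from the vector depends on a viral promoter, pSFFV, and both groups were sorted for fluorescence. RNA of 3 extracts per condition was pooled, so each condition has 1 array, no spread between replicates can be given and no test was possible. Because whole populations were measured, fewer cells with a transcript and less of it per cell cannot be told apart.

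Signals were MAS5 values, in which each probe set gets a single intensity and each array is scaled to the same trimmed mean, here 500.1. The median signal was 55.6 for Venus and 69.1 for GAS2DN, and the 75th percentile was 379.4 and 382.9. Signals below are given in this order, Venus first, and ratios are GAS2DN over Venus. A probe set was called eligible when its brighter signal reached the median of that array, and a gene was measured when its main probe set, the brightest that does not end in _x_at where there is a choice, was eligible. GAS2 itself had a single probe set, dim on both arrays, with 24.3 in Venus and 34.7 in GAS2DN cells, and whether it reads the truncated transgene was not tested. Of 11 megakaryocyte genes 7 were above the median on both arrays, among them ITGA2B with 7149 and 9238, while the platelet proteins PF4 and VWF were below it on both. Of 10 genes of T cells, B cells, fibroblasts and granulocytes CD2, with 56.7 and 89.3, and CD79A, with 159.0 and 185.0, were above it on both arrays. MS4A1 and COL1A2 were above it in GAS2DN cells alone, and 6 genes were below it on both arrays. Their part in the proteasome values was not tested.

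The proteasome is the large protease that degrades ubiquitin-tagged proteins in the cytosol and nucleus. Its core is a barrel of stacked rings, with alpha subunits (PSMA) that gate the entry and beta subunits (PSMB) that carry the proteolytic sites inside. A regulatory particle binds to the barrel's end. It has a ring of ATPases (PSMC) that unfold and thread the substrate, and a base and lid of other subunits (PSMD) that recognise and remove ubiquitin. Other activators (PSME) can cap the barrel instead. In immune and interferon-treated cells the catalytic beta subunits are exchanged for PSMB8, PSMB9 and PSMB10, which favour peptides for HLA class I. Proteasome inhibitors that target the core have been used against haematological cancers, and the study followed UCHL5, a deubiquitinase that binds the proteasome.

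The 35 measured proteasome genes were bright on both arrays. Their main probe sets ran from 1219 to 24563 for Venus and from 1030 to 27600 for GAS2DN, and all 35 lay above the 75th percentile on both. Of these genes 20 were higher and 15 lower in GAS2DN cells, with a median log2 ratio of 0.03 and an SD between genes of 0.23. The share of higher genes, 57.1%, was near the 56.2% of all measured genes and the 53.4% of those above the 75th percentile. Over all 13086 measured genes the median was 0.06 with an SD of 0.89, and over the 7968 genes above the 75th percentile it was 0.02 with an SD of 0.34. Within 1.2-fold of equal signals, a range set after the values were seen, were 28 of the 35, or 80.0%, against 50.7% of all measured genes and 66.4% of the bright ones. None of the 35 passed 2-fold, against 12.4% of all measured genes and 1.34% of the bright ones, and none passed 3-fold, the threshold of the study, against 6.87% and 0.251%. At 1.5-fold, a threshold added after the values were seen, PSMA7 alone passed, and the shares were 23.4% and 7.47%. The bright genes needed only their brighter signal at the 75th percentile, 379.4 for Venus and 382.9 for GAS2DN. The lowest main proteasome signal was 1030, so none of these shares is matched for brightness. The count of higher and lower genes depends on the scaling. With each array centred on its median the median of all measured genes went to -0.26, and 1 proteasome gene was higher and 34 were lower, with a median of -0.28.

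**Figure D1:**
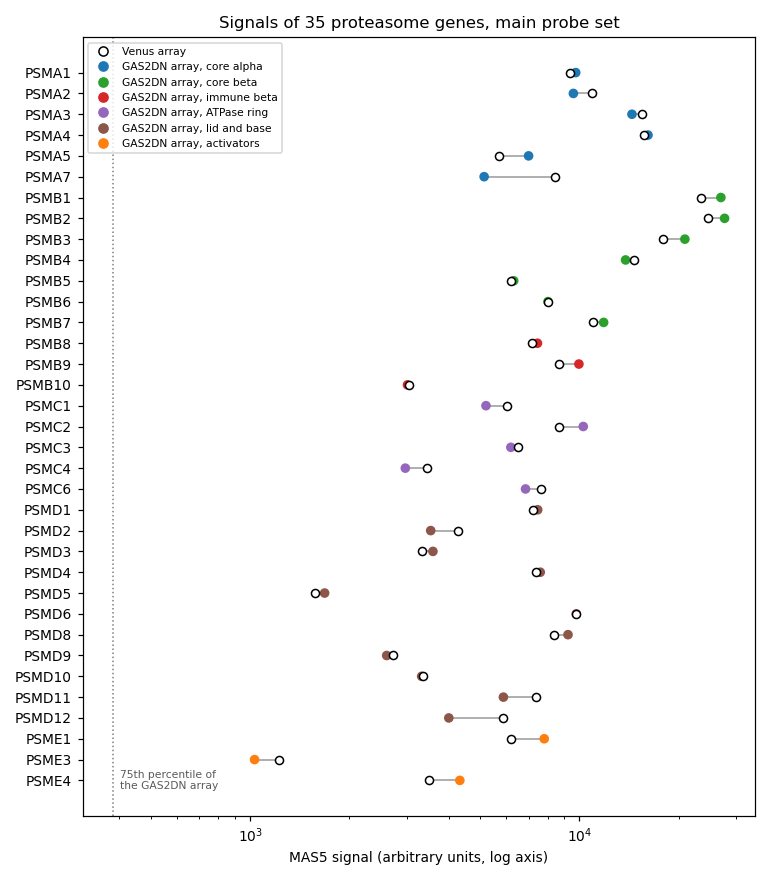
MAS5 signals (arbitrary units, log axis) of the main probe set of 35 proteasome genes with Venus (open circles) and GAS2DN (filled circles, coloured by subunit class), joined by a line. All signals lie to the right of the dotted 75th percentile of the GAS2DN array, 382.9, and the longest line is that of PSMA7.

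**Figure D2:**
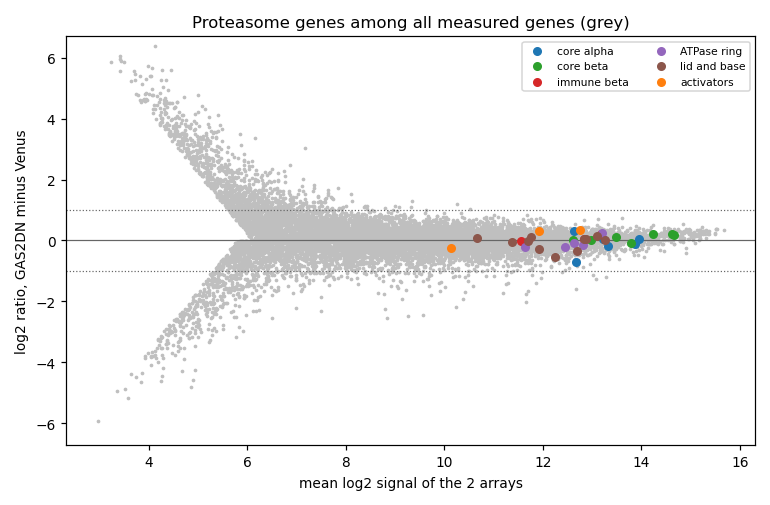
Log2 ratio of GAS2DN to Venus signals against the mean log2 signal for the main probe sets of all 13086 measured genes (grey) and of the 35 proteasome genes (coloured by class), with dotted lines at 2-fold. The proteasome genes lie in the bright part of the plot, between -0.71 and 0.34.

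The alpha ring had 6 measured genes, 3 higher and 3 lower, with a median log2 ratio of -0.03. PSMA1 had a signal of 9340 and 9741, a ratio of 1.04, and 1.08 and 1.16 in its other probe sets. PSMA4 had 15652 and 16151, a ratio of 1.03. PSMA2 had 10886 and 9581, a ratio of 0.880, and 0.995 in its other probe set. These 3 were within 1.2-fold in every eligible probe set.
PSMA3 had 15523 and 14436, a ratio of 0.930, and a much dimmer probe set of it went from 76.5 to 98.8. PSMA5 had 5706 and 7004, a ratio of 1.23, and a dimmer probe set went the opposite way, from 322.5 to 249.4. PSMA7 had 8402 and 5132, a ratio of 0.611, which was the lowest of all 35 genes. The second probe set of PSMA7, whose name ends in _x_at, was brighter with 16883 and 16921, a log2 ratio of 0.00, so the value of PSMA7 rests on which of the 2 is read. With the _x_at probe sets kept, an alternative added after the values were seen, the median of the alpha ring was 0.02 and the lowest gene was PSMD12. PSMA8, the alpha subunit known from testis, had 22.7 and 15.98, both below the array medians, and was not measured.

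In the beta rings 6 of 7 genes of the standard subunits were higher in GAS2DN cells, all by less than 1.2-fold, with a median log2 ratio of 0.11. The 3 catalytic subunits were nearly equal. PSMB5, the chymotrypsin-like subunit and main target of bortezomib, had 6195 and 6311, a ratio of 1.02. PSMB6, the caspase-like subunit, had 8009 and 8023, a log2 ratio of 0.00. PSMB7, the trypsin-like one, had 11008 and 11841, a ratio of 1.08.
The other 4 subunits build the ring without a proteolytic site. PSMB1 had 23428 and 26896, a ratio of 1.15, PSMB2 had 24563 and 27600, a ratio of 1.12, and PSMB3 had 17999 and 20904, a ratio of 1.16. PSMB4 had 14626 and 13807, a ratio of 0.944, with 0.997 and 0.840 in its other probe sets. The second bright probe set of PSMB1 had 24902 and 25167, a ratio of 1.01. The dimmest one went from 54.0, below the array median, to 128.3, a ratio of 2.38 and the only proteasome probe set over 2-fold higher. PSMB2 had 3 dimmer probe sets, all lower in GAS2DN cells, at 0.994, 0.634 and 0.738. The class median was 0.04 after loess, 0.04 after quantile normalization and -0.0042 by the brightest probe set besides the main one in the 3 genes that had another.

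The 3 immune subunits were expressed in both conditions, each through a single probe set. PSMB8, which takes the place of PSMB5, had a signal of 7174 and 7453, a ratio of 1.04. PSMB9, the counterpart of PSMB6, had 8664 and 9960, a ratio of 1.15. PSMB10, the counterpart of PSMB7, had 3029 and 3002, a ratio of 0.991. Their median log2 ratio was 0.05, next to 0.11 for the standard beta subunits. No error of the difference can be given with these arrays.

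Of the 5 measured ATPases 4 were lower in GAS2DN cells, and the median log2 ratio was -0.16. PSMC1 had 6005 and 5198, a ratio of 0.866, and PSMC4 had 3445 and 2957, a ratio of 0.858. PSMC3 had 6509 and 6187, a ratio of 0.951, and PSMC6 had 7666 and 6856, a ratio of 0.894. Each of these 4 was read by 1 probe set, and none was lower by as much as 1.2-fold. PSMC2 was the exception with 8659 and 10268, a ratio of 1.19, while its dimmer probe sets had 1.03 and 0.529, the last from 750.2 to 396.8. PSMC2 is the only ATPase with a second eligible probe set, and by that one the class value was 0.05.

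The base and lid class had 11 measured genes, 6 higher and 5 lower, with a median log2 ratio of 0.00. It was formed by name and so includes the chaperones PSMD5, PSMD9 and PSMD10. PSMD1 and PSMD2 are the large scaffold subunits of the base. PSMD1 had 7217 and 7465, a ratio of 1.03, and 0.988 in its other probe set. PSMD2, read once, had 4279 and 3532, a ratio of 0.825. PSMD4, a ubiquitin receptor, had 7374 and 7600, a ratio of 1.03, and 2 more eligible probe sets gave 0.976 and 0.954.
The lid scaffold genes held both the smallest and the largest difference of the class. PSMD6 had 9776 and 9780, a log2 ratio of 0.00. PSMD3 had 3319 and 3586, a ratio of 1.08, and PSMD8 had 8372 and 9228, a ratio of 1.10. PSMD12 had 5845 and 4008, a ratio of 0.686, although its second probe set had 3155 and 3115, a ratio of 0.987. PSMD11 was lower in both of its probe sets, with 7403 and 5873 in the main one, a ratio of 0.793. The dimmer one had 697.3 and 315.3, a ratio of 0.452 and the only eligible proteasome probe set over 2-fold lower.
PSMD5, PSMD9 and PSMD10 are chaperones that help to assemble the base. PSMD5 had 1574 and 1681, a ratio of 1.07, and PSMD9 had 2709 and 2595, a ratio of 0.958. PSMD10, also known as gankyrin, had 3342 and 3315, a ratio of 0.992. The second eligible probe sets of PSMD9 and PSMD10 had 0.983 and 0.921.

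Among the activators PSME1 and PSME4 had the highest main ratios of all 35 genes. PSME1, a subunit of the interferon-inducible cap, had 6189 and 7814, a ratio of 1.26 in its single probe set. PSME4, the large cap known for acting on acetylated histones, had 3496 and 4330, a ratio of 1.24, and 0.877 and 1.29 in its other probe sets. PSME3, the nuclear cap, had 1219 and 1030, a ratio of 0.845. It was lower in all 4 of its probe sets, and the other 3 had 0.896, 0.833 and 0.646. The median of the 3 genes was 0.31, but the brightest probe sets of PSME3 and PSME4 besides the main ones gave -0.17.

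The repeated measure within these arrays is the set of probe sets of 1 gene, which share their target and are no replicates of a condition. In all, 62 of the 68 probe sets were eligible, and the other 6 had signals of 1.54 to 34.9. For the 17 genes with at least 2 eligible probe sets the pooled SD of the log2 ratio within a gene was 0.36, larger than the SD of 0.23 between the 35 main values. The 0.36 includes dim probe sets, such as that of PSMB1 with 54.0 and 128.3, so these SDs are not matched for brightness. In 9 of the 17 genes all eligible probe sets had 1 direction and in 8 they had both.
Of the 62 probe sets 1 was over 2-fold higher and 1 over 2-fold lower, next to 8.51% and 6.07% of all 24840 eligible single-gene probe sets. These shares are not matched for brightness. Of the 62, 57 had their brighter signal at or above the 75th percentile, and 1 of the 57 was over 2-fold. The share over 2-fold among all single-gene probe sets that bright was not counted. Among the main probe sets that bright it was 1.34%. Over all single-gene probe sets that bright the SD of the log2 ratio was 0.36, against 0.98 over all eligible ones. The proteasome probe sets other than the main one leaned to lower values. They come from 17 genes, with more than 1 from the same gene in places. Some log2 ratios lay close to 0, such as -0.0042 in PSMB4, where the scaling can set the sign. Of these 27 only 8 were higher in GAS2DN cells, or 29.6%, against 52.7% of all 11754 such probe sets. With those above the 75th percentile the counts were 6 of 22, or 27.3%, against 51.5% of 4769. The median log2 ratio of the 27 was -0.02, and 18 of the 27, or 66.7%, were within 1.2-fold, against 40.8% of the 11754. Above the 75th percentile these were 17 of 22, or 77.3%, against 59.0%.

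**Figure D3:**
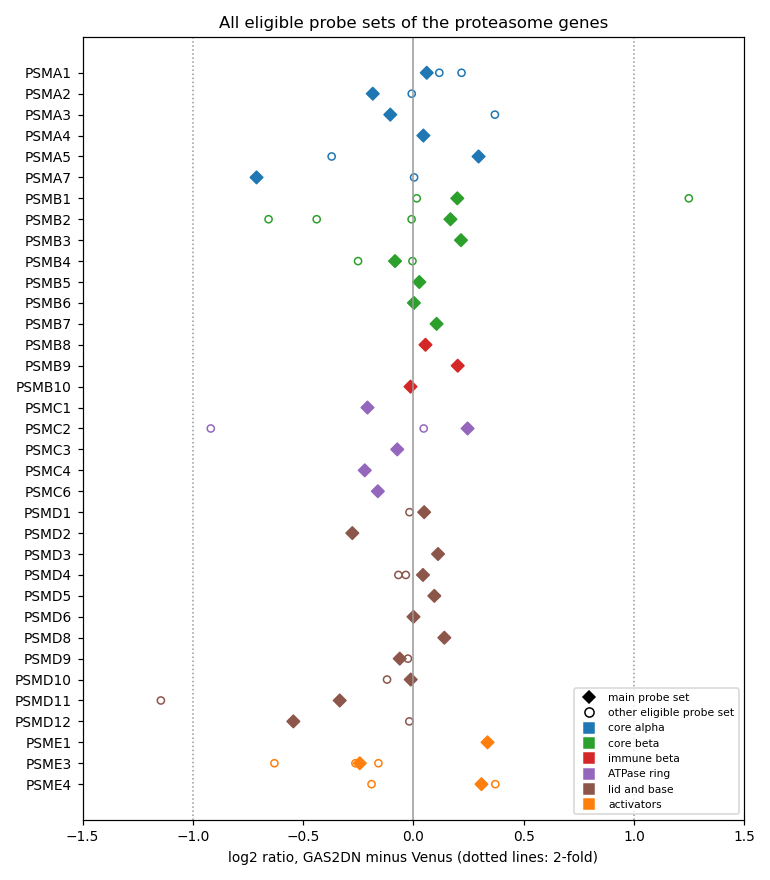
Log2 of the GAS2DN over Venus ratio for the main probe set (diamonds) and the other eligible probe sets (open circles) of 35 proteasome genes, coloured by class, with dotted lines at 2-fold. A probe set of PSMD11 at -1.15 and one of PSMB1 at 1.25 lie outside the lines. In PSMA5, PSMA7, PSMB2, PSMC2, PSMD12 and PSME4 too the probe sets of a gene lie far apart.

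**Figure D4:**
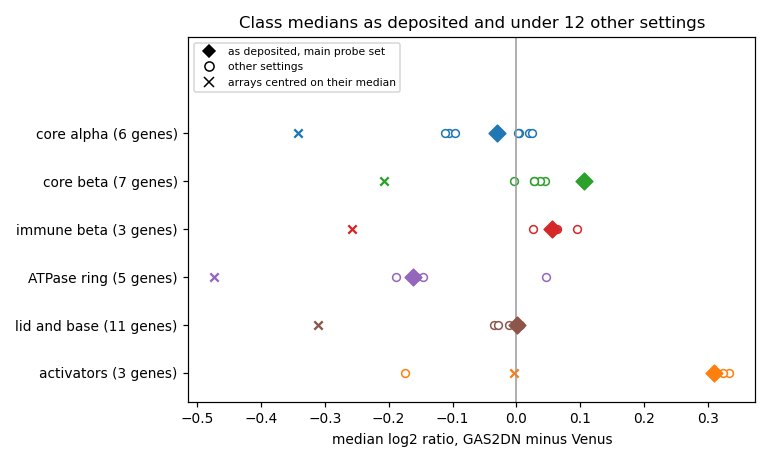
Median log2 ratio of each subunit class with the deposited scaling and main probe sets (diamonds), under the other settings (open circles) and with arrays centred on their median (crosses), which moves all classes down. The medians of the activators and of the ATPase ring cross 0 by the brightest probe set besides the main one, where 2 genes and 1 gene remain, as does that of core beta, to -0.0042, and those of core alpha and of lid and base lie on both sides of 0.

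Promoter sequences were examined because proteasome genes are known to be driven together by NFE2L1, a transcription factor that binds antioxidant response elements. RefSeq windows on GRCh38.p14, from 250 bases before to 50 after a gene's start, were at hand for 31 of the 36 genes and for 27305 genes in all. The element's core, TGACNNNGC on either strand, was found for 11 of the 31 genes, or 35.5%, and for 16.1% of all genes. The 11 genes had a median log2 ratio of 0.10, from -0.54 in PSMD12 to 0.34 in PSME1, and the other measured genes with a window had -0.01. A match is a string of letters and not a site shown to be bound, and no motif here overlapped another one. For members of 4 classes the stretch around the core, which is in capitals, is shown on the strand of the gene, ending before its start.
PSMA4 (chr15:78540640-78540688): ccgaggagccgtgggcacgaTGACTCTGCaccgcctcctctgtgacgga
PSMB3 (chr17:38752617-38752665): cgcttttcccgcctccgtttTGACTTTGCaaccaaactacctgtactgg
PSMB9 (chr6:32854024-32854072): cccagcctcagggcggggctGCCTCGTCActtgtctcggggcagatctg
PSMD3 (chr17:39980750-39980798): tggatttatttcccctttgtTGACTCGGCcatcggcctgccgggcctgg
PSMD12 (chr17:67366714-67366762): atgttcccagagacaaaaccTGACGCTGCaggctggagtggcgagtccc
In PSMB9 the core is on the opposite strand. The genes below PSMA4 in this list had ratios of 1.16, 1.15, 1.08 and 0.686, and PSMA4 had 1.03. The second probe set of PSMD12 had 0.987. Of the 11 genes with the core PSMC4, PSMD9 and PSMD12 were lower in GAS2DN cells and the others higher. Among all 35 measured proteasome genes 20 were higher and 15 lower. A link between the core and the ratios was not tested.

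Other motifs were counted in the same windows and on both strands. CCAAT was found for 15 of the 31 genes, or 48.4%, against 39.7% of all genes. CCGGAAG, the core that ETS factors bind, was found for 9, or 29.0%, against 12.2%, and ATGGCGG, part of the YY1 motif, for 5, or 16.1%, against 6.66%. GAAANNGAA, a pair of interferon response motifs, was found for 6, or 19.4%, against 9.86%. These were PSMA4, PSMB4, PSMB8, PSMB10, PSMC2 and PSME1, with log2 ratios from -0.08 to 0.34. The match of PSMB10, an immune subunit known to be induced by interferon, lay close to its start and is shown with its core in capitals.
PSMB10 (chr16:67936851-67936891): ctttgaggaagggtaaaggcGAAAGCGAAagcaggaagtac

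Other genes of the pathway were within 1.5-fold by their main probe sets. Of 32 genes for proteasome-bound deubiquitinases and receptors, assembly chaperones, interacting proteins, transcription factors, shuttles and ubiquitin itself, 27 were measured, all above the median on both arrays. Of these 11 were higher and 16 lower, with a median log2 ratio of -0.04. None passed 2-fold by its main probe set, against 12.4% of all measured genes and 1.34% of those above the 75th percentile. Another eligible probe set did so in 7 of the 27 genes, from 0.0681 in AKIRIN2 to 2.61 in UBQLN4. The share of all genes with such a probe set was not counted. Of all eligible single-gene probe sets 8.51% were over 2-fold higher and 6.07% over 2-fold lower, which counts probe sets and not genes. The highest were UBA1, the main ubiquitin-activating enzyme, with 706.4 and 987.8, a log2 ratio of 0.48, and POMP, the chaperone that matures the core, with 16237 and 20813, a log2 ratio of 0.36. The other eligible probe set of UBA1 had a ratio of 1.82 and that of POMP 0.967. The lowest were RAD23B, a shuttle for ubiquitinated proteins, with 8498 and 6440, a log2 ratio of -0.40, and ZFAND5, a proteasome-binding zinc finger protein, with 4589 and 3502, a log2 ratio of -0.39. Their other eligible probe sets were lower too, at 0.430 to 0.912 for RAD23B and 0.788 for ZFAND5.
The deubiquitinases and the receptor that bind the regulatory particle were slightly lower by their main probe sets. UCHL5 had 4506 and 4137, a ratio of 0.918, although its dimmer probe sets had 0.952, 0.401 and 0.117. By quantitative PCR, a different measure, the study reported UCHL5 to be lower with GAS2DN in MEG-01 and in other CML cells. The study had drawn its candidates from genes over 3-fold on these arrays. Of the UCHL5 probe sets only the dimmest passed 3-fold, with 87.7 and 10.3. USP14 had 5642 and 5469, a ratio of 0.969, and 0.773 to 0.923 in its others. ADRM1, the receptor that anchors UCHL5, had 2548 and 2510, a ratio of 0.985. NFE2L1 had 1417 and 1374, a ratio of 0.970, and 1.14 to 1.35 in the rest of its eligible ones.

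Genes known to be induced together with the immune subunits showed no common direction. Of 11 such genes 9 were measured, with 5 higher, 4 lower and a median log2 ratio of 0.00. TAP1, the peptide transporter gene that neighbours PSMB9, had 4177 and 4584, a ratio of 1.10. B2M, the light chain of HLA class I, had 34569 and 42134, a ratio of 1.22, and 0.968 to 1.34 in its other probe sets. NLRC5, the activator of class I genes, had 679.3 and 885.4, a ratio of 1.30. Over 2-fold by the main probe set were 12.4% of all measured genes and 1.34% of those above the 75th percentile. Among the 9 genes the single one was ERAP1, a peptide-trimming enzyme. It had 1056 and 417.9, a ratio of 0.396, whereas its other eligible probe sets lay at 1.10 to 1.26. In TAPBP another eligible probe set went over 2-fold, to a ratio of 0.156, beside 1.27 in the main one.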

How the data were processed

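RNA from MEG-01 cells was hybridised to 2 Affymetrix Human U133 Plus 2.0 arrays, 1 per condition. The authors deposited log2 MAS5 signals, and the version of MAS5 is not given in the sources used here. MAS5 scales each array as a whole and keeps noise high at low signals. The deposited values hold no detection calls, and having so few arrays limits all precision. Signals are 2 to the power of the deposited value, and ratios are GAS2DN over Venus.

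Of 54675 probe sets, 62 controls, 1801 with several genes and 11721 with no gene were set aside. Symbols were updated through gene identifiers for 41037 probe sets and kept for 54. Medians and percentiles leave out controls. All subunits with a probe set of their own are named by their main probe set, as are UCHL5, USP14, ADRM1 and the 2 highest and 2 lowest genes of the pathway list; NFE2L1, AKIRIN2, UBQLN4 and the examples among immune and marker genes were chosen after their values were seen. The subunits, classes and lists were chosen with earlier results of these data known. Lists are described by counts and medians, without a test. In the marker list, 1 gene is not reported here. Alternatives changed the filter, scaling, treatment of low signals and choice of probe set, with loess at a span of 0.2 and 3 iterations. The steps were checked on simulated data. Python 3.11.15, numpy 2.4.6, pandas 2.3.3, statsmodels 0.14.6, scipy 1.17.1 and matplotlib 3.10.9 were used.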

Additional observations from a re-analysis of the deposited data

How the results depend on the processing

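With 1 array per condition every value below is without a test. A median was counted as moved when it changed by more than the SD of 0.36 between probe sets of a gene, divided by the root of its number of genes. That held for 9 of 83 medians. The stricter filters and the raising of low signals left every median as it was, since all 35 main probe sets lie above the 75th percentile on both arrays. With arrays centred on their median, which lowers every ratio alike, the median of all proteasome genes was -0.28, and the classes had -0.34 (core alpha), -0.21 (core beta), -0.26 (immune beta), -0.47 (ATPase ring), -0.31 (lid and base) and -0.0031 (activators). By the brightest eligible probe set besides the main one, which can be an _x_at probe set brighter than it, the ATPase ring had 0.047 from 1 gene and the activators -0.17 from 2, and the immune subunits have no such value. Under the other settings the median of all proteasome genes stayed between -0.02 and 0.03, with both signs.

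The number of genes over 2-fold went from 0 to 1 with centred arrays (PSMA7), to 2 without _s_at and _x_at probe sets (PSMB1 and PSMD11) and to 1 by the brightest besides the main one (PSMD11). The number of eligible probe sets over 2-fold went from 2 to 4 without a filter, to 3 with centred arrays, to 1 when both signals had to reach the median or the brighter one the 75th percentile, and to 0 with the array median added. Of 392 values of single genes under these settings 380 moved by less than 0.36, and the 12 others belonged to 8 genes. The sign changed in 40, including that of PSMA7, whose size was 0.71. Filters and the raising of low signals could not change the value of a gene, since all main probe sets lie above the 75th percentile. Centring shifts every gene by the same amount, which is below 0.36, so it could move none. Most main log2 ratios were themselves smaller than 0.36 in size, so a value that did not move can still have changed sign. The causes were not tested.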

Other observations

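RNAs that lie antisense or divergent to proteasome genes were read by probe sets of their own. PSMB8-AS1 had signals of 2751 (Venus) and 3261 (GAS2DN), a ratio of 1.19, and 63.0 and 12.1 in a dim probe set, a ratio of 0.193. PSMA3-AS1 had 838.5 and 635.2, a ratio of 0.758, with 0.873 and 1.18 in dim probe sets. PSMD6-AS2 had 153.9 and 235.1, a ratio of 1.53, and 1.30 in a probe set below the median on both arrays. PSMD7-DT, the divergent one, was below the median on both, with 18.4 and 2.21.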
